A study of Anas platyrhynchos and Gallus gallus and Anas rubripes with 21 samples.

Results

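*RET*, its 4 co-receptor genes *GFRA1*, *GFRA2*, *GFRA3* and *GFRA4*, and the ligand gene *GDNF* were described across the trigeminal ganglia of 7 bird species. The 6 genes were chosen by symbol, as the rows of the deposited expression table with these names, out of 20451 genes in all. All 6 stand in both the duck and the chicken annotation, as do 12264 genes of the table, and 5 of the 6 had a mean of at least 1 RPKM (reads per kilobase of gene length, scaled to the mapped reads of the library) over the species. *GDNF* did not. Of all genes in both annotations, 9909 reached that mean and are called the tested genes here.

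Neurons of the trigeminal ganglion supply the bill and face with touch, temperature and pain sensation. RNA was sequenced from ganglia of 21 untreated embryos, 3 per species, taken after they had broken the inner shell membrane and before hatching. The species and the embryonic days were Pekin duck (days 25 to 26), black duck (days 21 to 22), ruddy duck (days 30 to 31), Lesser Scaup (days 25 to 26), harlequin duck (days 28 to 29), wood duck (days 28 to 31) and chicken (days 19 to 21). Pekin duck and chicken eggs came from a farm, and the other eggs from a wildlife research center or a waterfowl conservancy. Age in days, origin and species go together in this design and cannot be told apart.

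Each species has 1 value per gene, the authors' mean over 3 birds, so no value below carries an error between birds and no difference between 2 species was tested. An exact test of 6 species against 1 could not go below p = 0.143. An SD, where given, is the spread between the 6 duck species. The depth of each bird cannot be read from the table. Over the whole table, chicken lay apart from the ducks, with a median log2 ratio of the duck mean to chicken of 0.26 over the tested genes (quartiles -0.28 and 0.82). Every library was aligned to each of the 2 genomes, duck and chicken, and neither the alignment behind each value nor the gene length used for it was seen, so in ratios of ducks to chicken these cannot be told apart from the RNA level. Of 9 general neuron genes looked at, each was above 0 in every species, and their summed level was 3612 RPKM in chicken and between 3481 RPKM (Lesser Scaup) and 4523 RPKM (wood duck) in the ducks. Only 6 of the 9 stand in both annotations. *GAP43*, *ISL1* and *POU4F1* stand in the chicken annotation alone, and *GAP43* made up 228 to 579 RPKM of the sums in the ducks.

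The GDNF family ligands are secreted proteins that act on sensory, enteric and motor neurons. Each ligand binds by preference one co-receptor that is anchored in the membrane by a lipid (GDNF binds GFRA1, neurturin GFRA2, artemin GFRA3 and persephin GFRA4), and the pair then activates RET, a receptor tyrosine kinase, which carries the signal into the cell. In mouse sensory ganglia, *RET* marks nociceptors that lack neuropeptides and a group of rapidly adapting touch receptors, while *GFRA3* is found largely in nociceptors that make neuropeptides. The ligands are known chiefly as products of the tissues that the axons reach.

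*RET*, the shared signalling receptor (duck gene 101803164, chicken gene 396107), was abundant in all 7 species and did not set chicken apart. Its level was 155 RPKM in Pekin duck, 132 RPKM in black duck, 118 RPKM in ruddy duck, 120 RPKM in Lesser Scaup, 159 RPKM in harlequin duck, 163 RPKM in wood duck, with 120 RPKM in chicken. Wood, harlequin and Pekin duck formed the upper end, and chicken fell inside the range of the ducks, next to Lesser Scaup. Within a species, *RET* stood above 95.4% to 97.2% of all genes in both annotations. The duck mean was 141 RPKM (SD 20.3 between duck species, n = 6), 1.17-fold the chicken level, and the log2 ratio of 0.23, on the log2(RPKM + 1) scale used for all such ratios, lay at percentile 48.1 of the tested genes. The sign of this ratio rested on the scaling of the species, since it was -0.041 after quantile normalization and 0.019 after scaling by the median ratio. Of the 6 pairs of neighbours in the order of *RET* levels, 5 lay within 10% of each other, and only the step from Pekin duck to black duck was larger (14.8%).

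*GFRA3*, the artemin co-receptor (chicken gene 416353), was the most abundant of the co-receptors in every species. The duck gene 101799494 carries no gene name in the duck annotation used, and the current RefSeq list for Pekin duck gives it as *GFRA3*. The level was 103 RPKM in Pekin duck, 88.2 RPKM in black duck, 81.8 RPKM in ruddy duck, 71.5 RPKM in Lesser Scaup, 115 RPKM in harlequin duck, 137 RPKM in wood duck, with 202 RPKM in chicken. Chicken lay above every duck, by 1.47-fold over wood duck and by 2.83-fold over Lesser Scaup. The duck mean was 99.5 RPKM (SD 24.2, n = 6), with a log2 ratio to chicken of -1.01. Without black duck, ruddy duck or Lesser Scaup, this ratio was -0.98, -0.96 and -0.94, so it falls short of a 2-fold difference when any of these ducks is left out. Only black and ruddy duck were neighbours within 10% in the order of levels.

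*GFRA1*, the GDNF co-receptor (duck gene 101801788, chicken gene 395994), varied little among the ducks. Its level was 19.1 RPKM in Pekin duck, 23.0 RPKM in black duck, 23.0 RPKM in ruddy duck, 18.3 RPKM in Lesser Scaup, 22.6 RPKM in harlequin duck, 25.5 RPKM in wood duck, with 28.8 RPKM in chicken. Chicken was again the highest, by 1.13-fold over wood duck, a step of 11.7%. The duck mean was 21.9 RPKM (SD 2.70, n = 6) and the log2 ratio to chicken was -0.38, at percentile 21.2 of the tested genes. In the order of levels, black and ruddy duck differed by 0.122%, ruddy and harlequin duck by 1.62%, and wood and black duck by 9.70%.

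*GFRA2*, the neurturin co-receptor (duck gene 101791807, chicken gene 395993), had a different duck at its upper end. It stood at 14.3 RPKM in Pekin duck, 18.8 RPKM in black duck, 11.7 RPKM in ruddy duck, 11.5 RPKM in Lesser Scaup, 10.2 RPKM in harlequin duck, 14.4 RPKM in wood duck, with 32.4 RPKM in chicken. Harlequin duck, which was among the highest in *RET* and *GFRA3*, was the lowest here, and chicken exceeded black duck, the highest duck, by 1.72-fold. The duck mean was 13.5 RPKM (SD 3.10, n = 6) and the log2 ratio was -1.21, at percentile 5.61.

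*GFRA4*, the persephin co-receptor (duck gene 101792609, chicken gene 395839), was the least abundant co-receptor and set chicken furthest apart. Its level was 6.06 RPKM in Pekin duck, 5.08 RPKM in black duck, 3.20 RPKM in ruddy duck, 7.28 RPKM in Lesser Scaup, 7.00 RPKM in harlequin duck, 3.82 RPKM in wood duck, with 25.8 RPKM in chicken. Among the ducks the order ran largely against that of *GFRA1*, with Lesser Scaup at the top and wood and ruddy duck at the bottom. Chicken lay 3.54-fold above Lesser Scaup and 8.06-fold above ruddy duck. The duck mean was 5.41 RPKM (SD 1.67, n = 6), and the log2 ratio of -2.06 lay at percentile 1.70 of the tested genes.

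**Figure D1:**
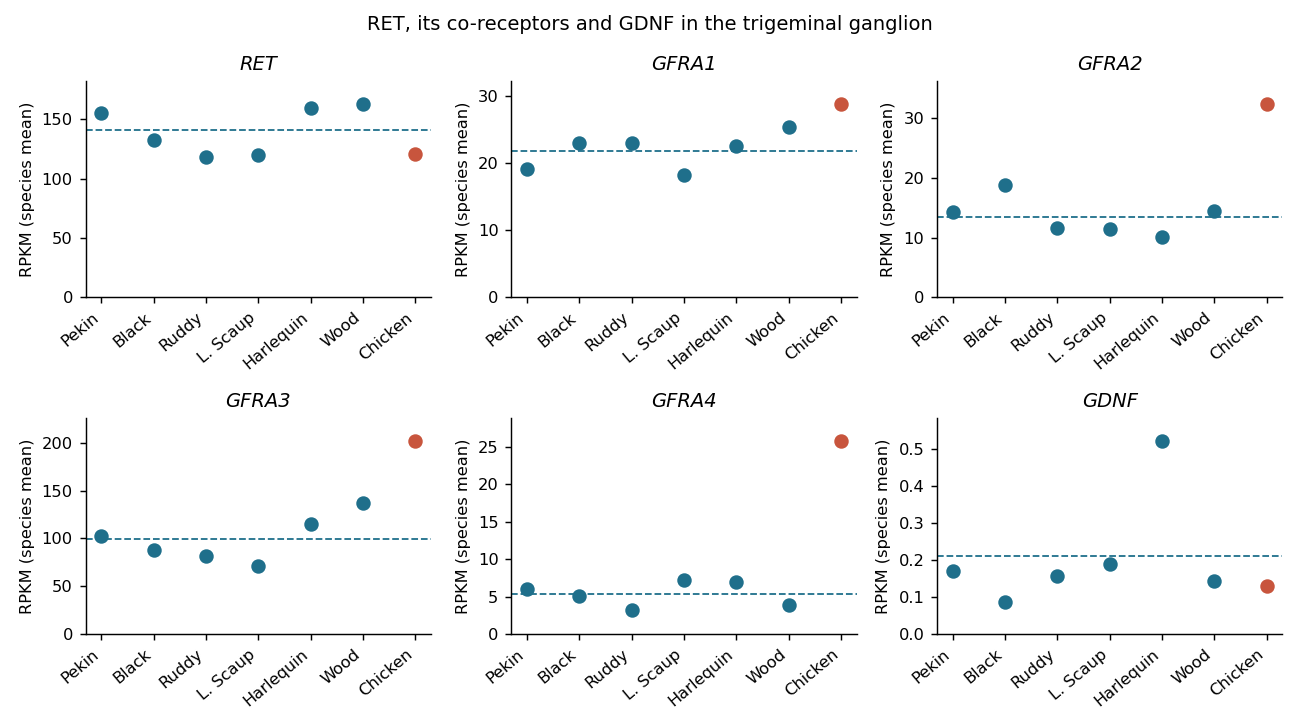
Level of each gene in RPKM (y axis, from 0) by species (x axis), with the 6 ducks in blue, chicken in red and the mean of the ducks as a dashed line; each point is the authors' mean over 3 birds. Chicken lies above all ducks for *GFRA1* to *GFRA4*, inside their range for *RET* (120 RPKM) and *GDNF*, and harlequin duck stands alone for *GDNF* (0.521 RPKM).

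Set against the whole table, chicken was above all 6 ducks for 4 of the 5 members at a mean of at least 1 RPKM and below them for none. Of the tested genes, chicken was above all ducks in 21.8% and below all ducks in 37.4%, and after scaling by the median ratio these shares were 28.2% and 30.6%. The 4 co-receptors stayed above in chicken under that scaling, after division by general neuron genes and after quantile normalization. A duck mean at least 2-fold lower than chicken was found for 3 of the 5 members, *GFRA2*, *GFRA3* and *GFRA4*, against 8.14% of the tested genes. None was at least 2-fold higher in the ducks, against 19.1% of the tested genes. Relative to the median of the tested genes, the log2 ratios were -0.033 for *RET*, -0.64 for *GFRA1*, -1.28 for *GFRA3*, -1.47 for *GFRA2* and -2.33 for *GFRA4*. In whole ganglia, fewer neurons that express a gene and less RNA per neuron cannot be told apart.

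**Figure D2:**
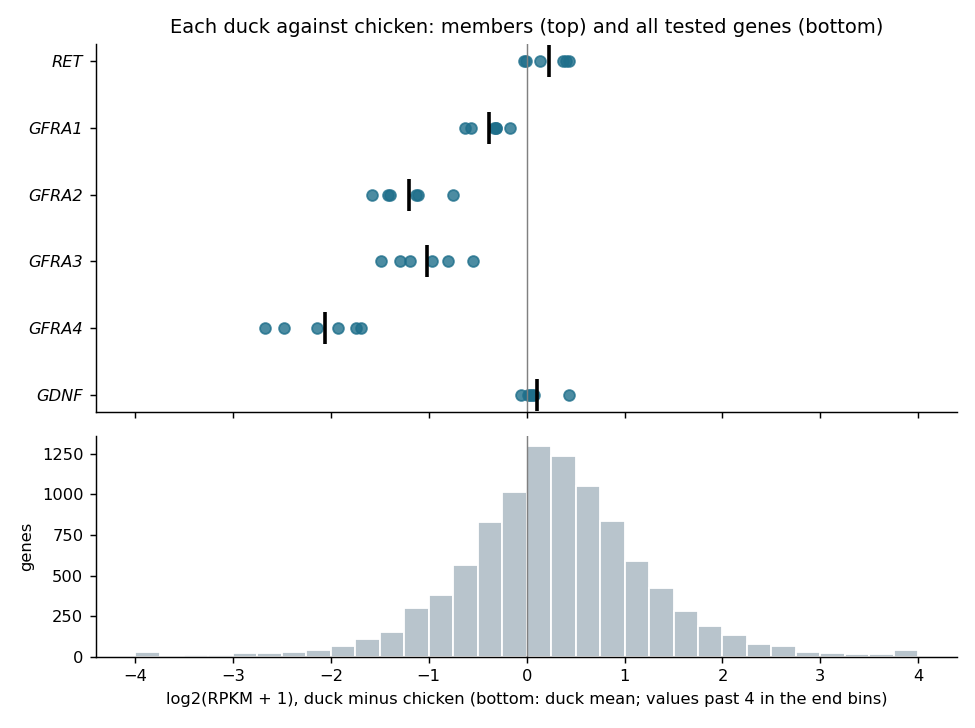
Top, log2(RPKM + 1) of each duck minus that of chicken (x axis) for the 6 genes, 1 point per duck, with a bar at the value of the duck mean; bottom, number of tested genes (y axis) by the same difference for the duck mean. All 6 ducks lie below 0 for *GFRA1* to *GFRA4*, from -0.38 for the duck mean of *GFRA1* to -2.06 for that of *GFRA4*, and on either side of 0 for *RET* and *GDNF*, while the tested genes centre on 0.26.

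Divided by *RET* within the same species, a ratio that does not move when all genes of a species are scaled together, the summed co-receptors were nearly constant among the ducks, and the sum and each co-receptor were higher in chicken. The gene lengths and alignments behind these levels were not seen. Between ducks and chicken, their part in the ratio to *RET* cannot be told apart from the RNA level. The summed RPKM of the 4 co-receptors per RPKM of *RET* was 0.916 in Pekin duck, 1.02 in black duck, 1.01 in ruddy duck, 0.906 in Lesser Scaup, 0.974 in harlequin duck, 1.11 in wood duck and 2.40 in chicken. In RPKM, the ducks therefore had about as much summed co-receptor as *RET* (mean 0.991, SD 0.0770, n = 6). The ratio in chicken was 2.42 times the duck mean and 2.16 times the highest duck. No duck came near the chicken value, although wood duck was the closest.

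Each co-receptor contributed to this difference. *GFRA3* per *RET* ranged among the ducks from 0.597 in Lesser Scaup to 0.845 in wood duck and was 1.68 in chicken. In RPKM, *GFRA3* thus lay below *RET* in every duck and above *RET* in chicken, with gene lengths and alignments unseen. *GFRA1* per *RET* ranged from 0.123 in Pekin duck to 0.195 in ruddy duck and was 0.240 in chicken. *GFRA2* per *RET* ranged from 0.0639 in harlequin duck to 0.142 in black duck and was 0.269 in chicken. *GFRA4* per *RET* ranged from 0.0235 in wood duck to 0.0608 in Lesser Scaup and was 0.214 in chicken, which is 5.53 times the duck mean. On the log2(RPKM + 1) scale, the duck mean of the ratio to *RET* minus that of chicken was -0.61 for *GFRA1*, -1.45 for *GFRA2*, -1.26 for *GFRA3* and -2.33 for *GFRA4*. With each duck left out in turn, these values ranged from -0.67 to -0.54, from -1.56 to -1.34, from -1.32 to -1.22 and from -2.45 to -2.21.

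**Figure D3:**
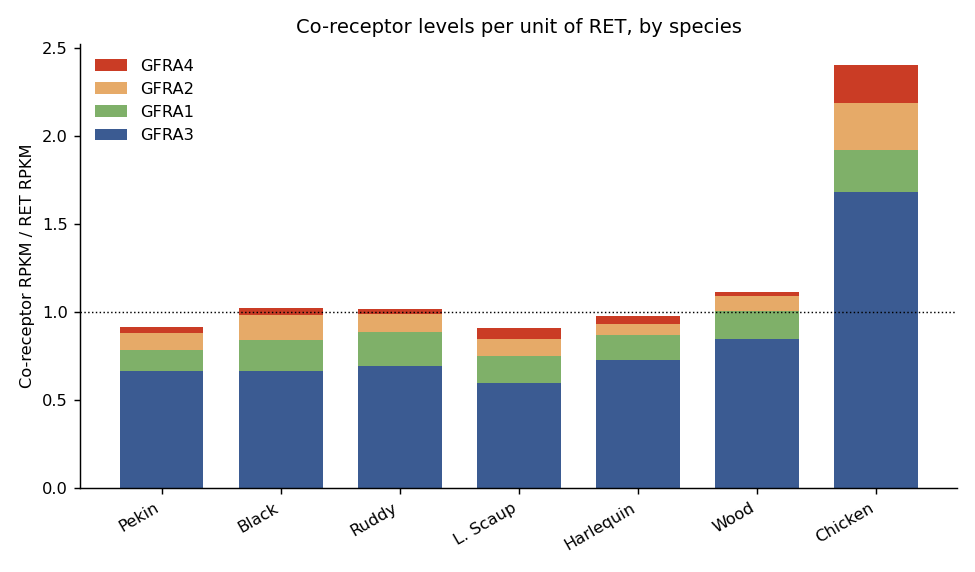
Stacked bars give the RPKM of each co-receptor divided by the RPKM of *RET* in the same species (y axis, from 0) for the 6 ducks and chicken (x axis), with a dotted line at 1. The stacks of the ducks end between 0.906 and 1.11 and that of chicken at 2.40, with *GFRA3* as the largest part in each.

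In the make-up of the co-receptors, chicken fell inside the duck range for the shares of *GFRA3* and *GFRA2* and outside it for those of *GFRA1* and *GFRA4*. *GFRA3* made up 69.9% of the summed co-receptor level in chicken and between 65.3% (black duck) and 75.9% (wood duck) in the ducks. *GFRA2* made up 11.2% in chicken and 6.56% (harlequin duck) to 13.9% (black duck) in the ducks. The share of *GFRA1* was below all ducks in chicken, at 9.98% against 13.4% (Pekin duck) to 19.2% (ruddy duck). The share of *GFRA4* was above all ducks, at 8.93% against 2.11% (wood duck) to 6.71% (Lesser Scaup). Among the ducks, harlequin and wood duck had the largest shares of *GFRA3* and the smallest shares of *GFRA2*.

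Among the ducks, *GFRA3* followed *RET*. Over the 6 duck species, Pearson's *r* of the log2 levels was 0.93 and Spearman's rho was 0.943, and with each duck left out in turn *r* lay between 0.91 and 0.96. Without Lesser Scaup and ruddy duck, the 2 species farthest from the median of *RET*, *r* was 0.88. After division by general neuron genes it was 0.80. The points are species means that share the alignment genomes, the laboratory and descent, so *r* is given as a description. *RET* was 11th of 7345 genes when these were ordered by *r* with *GFRA3* among the ducks. With chicken included, *r* was 0.22, since chicken combined the highest *GFRA3* with a low *RET* level. Of the other co-receptors, *GFRA1* had an *r* with *RET* of 0.32 among the ducks, *GFRA2* of 0.06 and *GFRA4* of 0.16. *GFRA1* and *GFRA4* ran against each other among the ducks (*r* = -0.69, rho = -0.771). In all, 15 pairs of members were looked at.

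**Figure D4:**
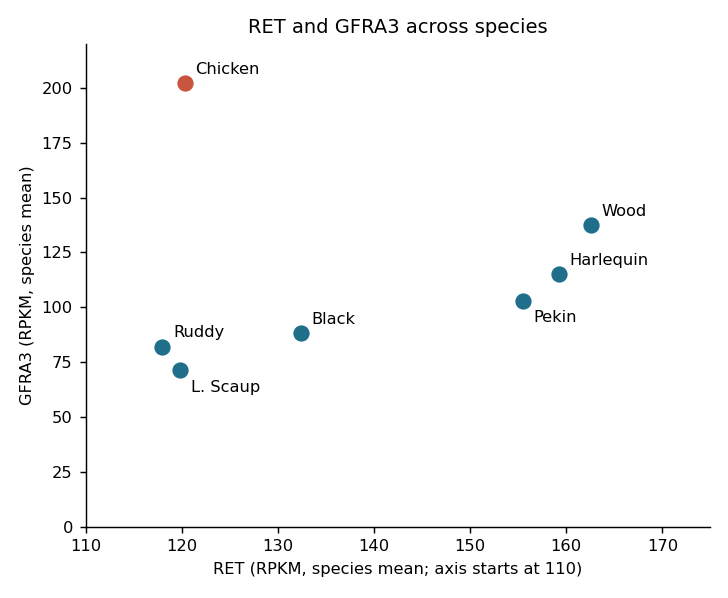
*GFRA3* level (y axis, RPKM from 0) against *RET* level (x axis, RPKM, not starting at 0), 1 point per species, ducks in blue and chicken in red. The 6 ducks lie along a rising line from ruddy duck and Lesser Scaup to wood duck (163 and 137 RPKM), and chicken stands apart at 120 RPKM of *RET* and 202 RPKM of *GFRA3*.

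*PIEZO2*, the touch channel gene to which the study relates its marker genes, gave each species another ratio to *RET*. *PIEZO2* per *RET* was 0.655 in Pekin duck, 0.753 in black duck, 0.783 in ruddy duck, 0.845 in Lesser Scaup, 0.429 in harlequin duck, 0.502 in wood duck and 0.400 in chicken. Harlequin duck, wood duck and chicken were thus the low group, and Lesser Scaup, with the lowest *GFRA3* per *RET*, was the highest. Over the 6 ducks, *r* of the log2 levels with *PIEZO2* was -0.57 for *RET*, -0.66 for *GFRA3*, -0.55 for *GFRA1*, 0.51 for *GFRA2*, -0.03 for *GFRA4* and -0.80 for *GDNF*. With chicken included the values were different, and over all 7 species *r* was 0.06 for *RET*, -0.88 for *GFRA3*, -0.79 for *GFRA1*, -0.60 for *GFRA2*, -0.78 for *GFRA4* and -0.23 for *GDNF*. For *GDNF* among the ducks, rho was -0.0857, and *r* without black and harlequin duck was 0.90. *GDNF* was not alone in this. Without the same 2 ducks *r* was -0.38 for *GFRA2*, and without Lesser Scaup and Pekin duck it was -0.005 for *GFRA1*. It was -0.40 for *GFRA4* without ruddy and wood duck. For *RET* it was -0.59 without Lesser Scaup and ruddy duck, and for *GFRA3* -0.64 without Lesser Scaup and wood duck.

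The ligands were close to the lower end of the measured range in every species. *GDNF* (duck gene 101802438, chicken gene 395569) stood at 0.170 RPKM in Pekin duck, 0.0857 RPKM in black duck, 0.157 RPKM in ruddy duck, 0.189 RPKM in Lesser Scaup, 0.521 RPKM in harlequin duck, 0.142 RPKM in wood duck, with 0.129 RPKM in chicken. Harlequin duck stood alone at the top, and chicken lay inside the range of the ducks, above black duck. The duck mean was 0.211 RPKM (SD 0.156, n = 6), with a log2 ratio to chicken of 0.10, which was 0.025 without harlequin duck. *GDNF* stood above 9.30% to 16.3% of genes in both annotations, depending on the species. *NRTN*, which encodes neurturin, lay between 0.174 RPKM (ruddy duck) and 0.444 RPKM (wood duck), with 0.213 RPKM in chicken. *ARTN*, which encodes artemin, was listed at 0 in black, ruddy and wood duck and at no more than 0.0702 RPKM (Pekin duck) elsewhere. *GDF15*, the ligand of the related receptor GFRAL in mammals, stands in the chicken annotation alone and was listed at 0 in every duck and at 0.113 RPKM in chicken. *PSPN*, which encodes persephin, was looked for, but no gene of the deposited table has this symbol, so it was not analysed here. None of the 4 ligand genes looked at reached a mean of 1 RPKM.

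*GFRAL*, a distant relative of the co-receptors that in mammals is known from the hindbrain, had a mean above 0 in every species (duck gene 101799223, chicken gene 421887). Its level was 9.07 RPKM in Pekin duck, 6.37 RPKM in black duck, 12.02 RPKM in ruddy duck, 2.02 RPKM in Lesser Scaup, 14.4 RPKM in harlequin duck, 18.5 RPKM in wood duck, with 4.76 RPKM in chicken. It spanned a wider range among the ducks than any of *GFRA1* to *GFRA4*, with wood duck at the top and Lesser Scaup below chicken. Over the 6 ducks, its *r* with *GFRA3* was 0.82 and that with *RET* was 0.65. With *GFRA3* it was 0.42 without Lesser Scaup and wood duck, and 0.24 over all 7 species. With *RET* it lay between 0.45 and 0.96 with each duck left out in turn, and was 0.69 over all 7 species. Of 2 further genes linked to this family, the adhesion molecule gene *NCAM1*, an alternative GDNF receptor in mammals, stood at 34.3 RPKM in chicken and 28.0 RPKM on average in the ducks. *SDC3*, a heparan sulfate proteoglycan gene that binds GDNF in mammals, stood at 30.2 and 30.3 RPKM. Chicken lay inside the duck range for *GFRAL*, *NCAM1* and *SDC3* as deposited, and above all ducks for *NCAM1* with median ratio scaling.

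Downstream of RET, the genes for adaptors and effectors lay on both sides of chicken. Of 21 such genes in both annotations at a mean of at least 1 RPKM, chicken was below all ducks in 8, above all in 3 and inside their range in 10, and the median log2 ratio was 0.60, against 0.26 over the tested genes. The share below all ducks is close to that of the tested genes (37.4%). With median ratio scaling the counts were 7 below and 6 above, and the median was 0.42, against 0.08 over the tested genes. The largest ratio belonged to *DOK5*, a docking protein that binds activated RET. It had 19.8 RPKM in Pekin duck, 17.2 RPKM in black duck, 12.1 RPKM in ruddy duck, 26.0 RPKM in Lesser Scaup, 29.5 RPKM in harlequin duck, 22.8 RPKM in wood duck, with 1.39 RPKM in chicken, so that the ducks averaged 15.3 times the level of chicken. Its relative *DOK4* had 11.3 RPKM in chicken and 22.1 to 51.6 RPKM in the ducks (log2 ratio 1.67). *GRB2*, the adaptor that links receptor tyrosine kinases to RAS, had 48.7 RPKM in chicken and 128 to 181 RPKM in the ducks (1.61). *SHC3*, a neuronal adaptor, had 0.323 RPKM in chicken and 1.21 to 2.77 RPKM in the ducks (1.05). Chicken was above all ducks for the adaptor gene *SHC4* (-0.85), the docking protein gene *GAB2* (-0.95) and *CBL* (-0.65), which encodes a ubiquitin ligase that acts on active receptors.

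Genes that restrain or process RET signalling also lay on both sides. Of 10, chicken was above all ducks in 2, the receptor phosphatase genes *PTPRF* (log2 ratio -0.67) and *PTPRA* (-0.42), and below all in 2, among them the feedback inhibitor gene *SPRY2* (0.41). The other 6, among them the phosphatase genes *PTPRJ* (-0.05) and *DUSP6* (-0.32) and the receptor inhibitor gene *LRIG1* (-0.19), lay inside the duck range. The median was -0.11, against 0.26 over the tested genes. Of the tested genes, chicken was above all ducks in 21.8% and below all in 37.4%. With median ratio scaling, chicken was above all ducks in 5 of the 10 and below in 2, against 28.2% and 30.6% of the tested genes. The median was then -0.30, against 0.08 over the tested genes.

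Nonpeptidergic nociceptors and a group of touch receptors carry RET in mouse, and the median log2 ratios of their gene lists had opposite signs. None of the 6 members was in these lists. Of 8 genes of mouse nonpeptidergic nociceptors measured in both annotations, chicken was above all ducks in 7 and below in none, with a median log2 ratio of -1.12. These counts were the same under the 3 scalings tried, and chicken was above all ducks in 21.8% of the tested genes as deposited and in 28.2% with median ratio scaling. *LPAR3*, a lysophosphatidic acid receptor gene, had 101 RPKM in chicken and 6.37 to 23.9 RPKM in the ducks (-2.97). *SCN11A*, the gene of sodium channel Nav1.9, had 353 RPKM and 43.2 to 140 RPKM (-1.95). Its duck gene 101799248 carries no gene name in the duck annotation used or in the current RefSeq list for Pekin duck. The kinase gene *PRKCQ* had a log2 ratio of -1.70, and *P2RX3*, the ATP-gated channel gene, one of -2.47, though it stands in the chicken annotation alone. Of 9 genes of RET-positive mouse touch receptors, chicken was below all ducks in 6 and above in 1, with a median of 1.07, against 37.4% of the tested genes below. With median ratio scaling it was below in 3 of 9, against 30.6% of the tested genes, and the median was 0.86. Here the log2 ratios were 2.44 for *MAF*, 1.76 for *CNTNAP2*, 1.07 for *MAFA*, 1.07 for *NTRK2*, 0.92 for *NEFH* and -2.68 for the calcium buffer gene *CALB1*, and 1.38 for *SHOX2*, which stands in the chicken annotation alone. Of 7 genes listed for peptidergic nociceptors, chicken was above all ducks in 3 and below in 2. Not every gene listed is particular to those cells, and the paper describes *TRPA1* as specific to polymodal nociceptors in birds. *PRDM12* (-1.34), *TRPA1* (-1.28) and *TAC1* (-1.19) were the former and *CALCB* (2.01) and *TRPV1* (0.86) the latter, while *ADCYAP1* (0.22) lay inside. The neuropeptide genes named here, *TAC1*, *CALCB* and *ADCYAP1*, thus had no common direction. These lists were chosen with results of these data in view, so their direction is not independent evidence.

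**Figure D5:**
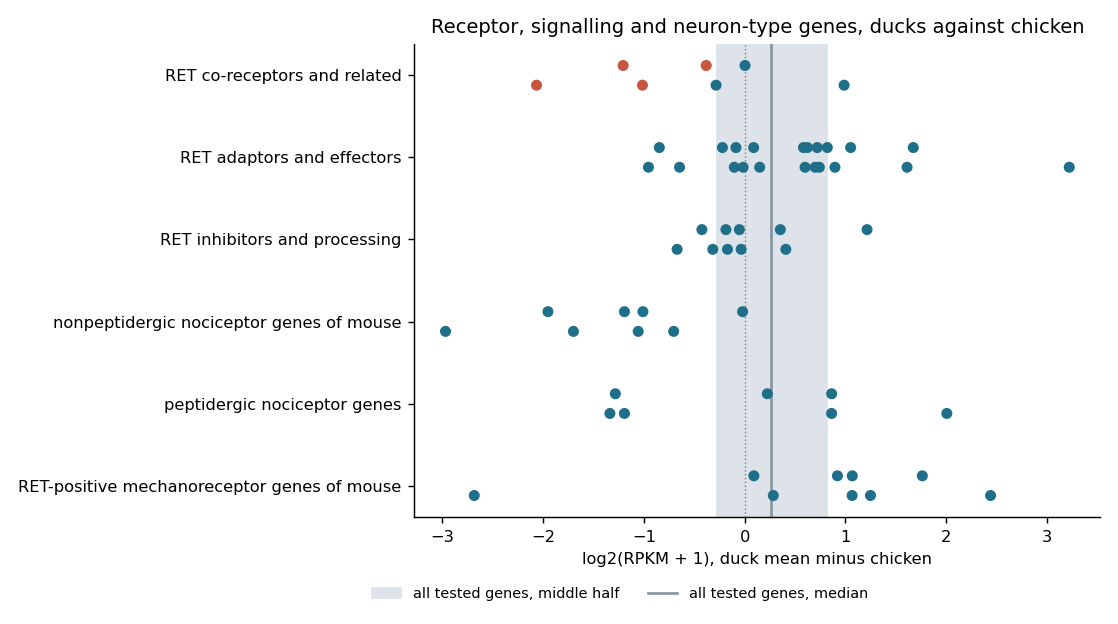
Difference of the duck mean and chicken on the log2(RPKM + 1) scale (x axis) for genes in both annotations at a mean of at least 1 RPKM, 1 point per gene, grouped by list (y axis), with the co-receptors *GFRA1* to *GFRA4* in red; the grey band spans the quartiles of the tested genes (-0.28 to 0.82) and the grey line their median (0.26). All 4 co-receptors and 7 of 8 nonpeptidergic nociceptor genes lie to the left of the band, and most touch receptor genes lie to its right.

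Among markers of other cells, the sums for fibroblasts and for macrophages and leukocytes were higher in chicken than in any duck. Those for endothelial, Schwann and satellite, and muscle cells lay inside the duck range in chicken. Over the tested genes, chicken was above all ducks in 21.8%. The summed level of 4 fibroblast markers was 1420 RPKM in chicken and 408 RPKM (wood duck) to 1082 RPKM (black duck) in the ducks, and 3 of the 4 were above all ducks in chicken. For 4 macrophage and leukocyte markers the sums were 25.0 RPKM and 5.59 to 12.6 RPKM, with 3 of 4 above. For 4 endothelial markers they were 51.2 RPKM and 17.8 to 52.7 RPKM, with 3 of 4 above. For 6 Schwann and satellite cell markers they were 3033 RPKM and 2031 to 3310 RPKM, and 2 of the 6 were above. The 5 skeletal muscle markers summed to 19.5 RPKM in chicken and from 7.36 RPKM in wood duck to 184 RPKM in black duck, the duck with the most *GFRA2*. None of these markers was listed at 0 in a species. Of the 6 Schwann and satellite cell markers, 5 stand in both annotations, and of the 5 muscle markers, 3 do. The part of these cells in the levels of *GFRA1* to *GFRA4* and *GDNF* was not tested.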

How the data were processed

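Reads of all birds were trimmed by the authors (Trimmomatic 0.36) and aligned to both the duck (BGI_duck_1.0) and the chicken (GRCg6a) genome by STAR 2.5.4b. The authors counted reads in protein-coding genes (featureCounts, Subread 1.6.2) and converted the counts to RPKM in edgeR 3.22.3. The default settings of featureCounts, stated in the methods, do not use strand, so a gene and an antisense neighbour cannot be told apart. The authors deposited RPKM values as 1 mean over 3 birds per species. By the paper's methods, duck and chicken genes were joined by a shared symbol. The duck genes paired with some chicken genes, among them *GFRA3*, *SCN11A*, *MAFA*, *PTPRF* and *PTPRJ*, carry no gene name in the duck annotation used. How these pairs were made was not seen. Since the table holds no counts and no value per bird, no test was made apart from Dixon's check for far values among the 6 ducks. Log2 ratios used a pseudocount of 1 RPKM. Genes in both annotations with a mean of at least 1 RPKM served as background. A fold of 2 was the limit for calls, and neighbours within 10% were called close. The members and all gene lists were chosen with earlier results of these data known. Named genes were the 6 members, all list genes whose mean reached 5 RPKM (in lists of over 10 genes, the 4 of largest ratio), *PIEZO2*, and for each member the 5 genes of highest *r* over the 7 species (mean of 5 RPKM or more, above 0 everywhere, *r* also positive among the ducks). *SHC4*, *GAB2*, *CBL*, *NRTN*, *ARTN* and *GDF15* are named outside this rule or below its minimum, after their values were seen. All 6 duck gene IDs of the members matched the RefSeq list of a later Pekin duck assembly, which was used for names alone. Alternatives were a pseudocount of 0.1 or none, median ratio scaling (from the 10053 genes over 1 RPKM everywhere), division by 6 general neuron genes (their geometric mean), quantile normalization, the median of the ducks, each duck left out, and other filters. For the *r* of *RET* with *GFRA3* and for the counts per list, these were chosen after seeing the data. Some list genes that this rule names are not reported here. The code was tested on simulated data. Python 3.11.15, numpy 2.4.6, pandas 2.3.3, scipy 1.17.1 and matplotlib 3.10.9 were used.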

Additional observations from a re-analysis of the deposited data

Results flagged for a closer look

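*GDNF* in harlequin duck, at 0.521 RPKM, lay far from the other ducks. Its gap to the next duck, Lesser Scaup, was 0.761 of the whole range of the 6 ducks, above Dixon's 95% critical value for 6 values. It was the only such value among 11 quantities looked at over the ducks (the 6 members, the ratio of each co-receptor to *RET* and the summed ratio). Chance gives about 1 in 20 for each quantity, so 1 such value among 11 can arise by chance. The value is a mean over 3 birds, so whether 1 bird carries it cannot be seen.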

How the results depend on the processing

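The 4 co-receptors lay above all ducks in chicken under every scaling and filter tried, and their ratios to *RET* moved by less than the spread between duck species under all pseudocounts and without any single duck. The log2 ratio of the duck mean to chicken moved by more than that spread for *RET* with median ratio scaling (0.019) and quantile normalization (-0.041, against 0.23). It did so for *GFRA1* with median ratio scaling (-0.58), division by general neuron genes (-0.56) and quantile normalization (-0.67, against -0.38), and for *GDNF* with a pseudocount of 0.1 RPKM (0.44) or none (0.71, against 0.10). The median over the tested genes moved from 0.26 to 0.08, 0.11 and 0.07 under the 3 scalings. Of the tested genes in the family lists (7 co-receptor, 21 adaptor and 10 inhibitor genes, and no ligand), chicken was above all ducks in 9. With median ratio scaling it was above in 16. The shares over all tested genes were 21.8% and 28.2%. Under median ratio scaling, 3 of 7 species kept their place in the order of *RET* levels, 4 of 7 in that of *GFRA1* and 3 of 7 in that of *GDNF*. After division by general neuron genes, 0 of 7 did for *RET*, 4 of 7 for *GFRA2* and 3 of 7 for *GDNF*. The causes were not tested. No paired analysis was possible because the table holds 1 mean per species, and for the same reason no bird could be left out. Levels under 1 RPKM, as for the ligands, rest on few reads.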

Other observations

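The genes whose levels were most like those of each member over the 7 species were, with *r* of the log2 levels, *DCTN6* (0.99), *CHMP1B* (0.93), *PWP2* (0.93), *NUFIP1* (0.92) and *TFIP11* (0.92) for *RET*. For *GFRA3* they were *RASGEF1A* (0.98), *LPAR3* (0.97), *SYT10* (0.96), *ADAM17* (0.95) and *CAP2* (0.94), and for *GFRA1* they were *VSTM5* (0.95), *MRPS35* (0.93), *TRPA1* (0.93), *BACH2* (0.93) and *MORC2* (0.93). All 10 of these were highest among the ducks in wood duck. *GFRA3* and *GFRA1* were too, so with genes picked by *r* this shared peak follows largely from the choice. For *GFRA2* they were *KLHL36* (0.98), *MED18* (0.97), *CCDC124* (0.97), *AGO4* (0.96) and the potassium channel gene *KCNB2* (0.96). For *GFRA4* they were *QSOX1* (0.99), *TGFB3* (0.99), *CCNYL1* (0.99), *TBL1X* (0.99) and *FAF2* (0.98). For *GDNF* they were *RSRP1* (0.96), *CAMK2D* (0.94), *TBC1D32* (0.94), *ACSL3* (0.94) and *CRYM* (0.94), each of them highest in harlequin duck. That peak also follows largely from the choice, since harlequin duck stood alone in *GDNF*.

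Of 7345 genes compared, 12 had an *r* of at least 0.9 with *RET*, 9 with *GFRA1*, 57 with *GFRA2*, 20 with *GFRA3* and 170 with *GFRA4*. *DCTN6*, a dynactin subunit gene, was lowest in ruddy duck (58.8 RPKM), highest in harlequin duck (84.8 RPKM) and at 60.0 RPKM in chicken, and its *r* with *RET* was 0.99 among the 6 ducks as well. *LPAR3*, which was also in the list of mouse nonpeptidergic nociceptor genes, had an *r* with *GFRA3* of 0.96 among the ducks. Both genes were picked by *r* over species that include these ducks, so these values are not independent of the choice.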
